A study of Mus musculus with 18 samples.

Results

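The 10 genes described here encode CC chemokines that act on monocytes and T cells: Ccl2, Ccl3, Ccl4, Ccl5, Ccl6, Ccl7, Ccl8, Ccl9, Ccl25 and Ccl28. They were taken by name from a table of 47729 genes, and all 10 were in it. RNA was measured by RNA-Seq in colon tissue of 9 mice of a C57BL/6 background, 3 in each of 3 groups. Naive WT mice (mice 1 to 3) carried no transgene and are labelled as controls. WT CAC mice (mice 4 to 6) were WT mice given the carcinogen azoxymethane (AOM, 10 mg/kg) followed by 3 courses of 2.5% dextran sulfate sodium (DSS), a regimen that gives colitis-associated cancer (CAC). Cldn2TG CAC mice (mice 7 to 9) were Villin-Cldn2 transgenic mice, which overexpress claudin-2 from a promoter of the intestinal epithelium, on the same AOM/DSS regimen. Transgenic mice were bred with WT mice and the study used littermate controls; ages are not given in the sources used here. The deposited treatment text names AOM/DSS for the control samples as well, so the naive group rests on its treatment label.

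Chemokines are small secreted proteins that guide leukocytes by binding G protein-coupled receptors, and the CC family is named for its pair of adjacent cysteines. Ccl2 and Ccl7 bind CCR2 and draw monocytes out of the bone marrow into inflamed tissue, Ccl3, Ccl4 and Ccl5 attract macrophages and T cells, and Ccl6 and Ccl9 are CCR1 ligands of rodents. Ccl25 and Ccl28 are made by mucosal epithelium, where they attract lymphocytes through CCR9 and CCR10.

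Each mouse had 14142711 to 22262546 reads on genes. Levels are given as CPM, which is read counts scaled to library size with TMM factors over the 9 mice, and a gene was called when its Benjamini-Hochberg adjusted p over all genes tested was under 0.05 in edgeR's quasi-likelihood test. Cldn2 itself was at 231 ± 34.9 CPM in naive WT, 130 ± 7.75 in WT CAC and 225 ± 21.2 in Cldn2TG CAC mice (SD, n = 3 each). The Cldn2TG CAC mice lay above all WT CAC mice and within the range of the naive mice. Among the mice, 2 stood apart. Naive WT mouse 1 had 214 CPM of Xist and a sum of 0.498 CPM over 4 Y-linked genes, against at most 0.204 CPM and at least 146 CPM in the other 8 mice. By these genes mouse 1 was female and the other 8 were male, so the naive group mixed the sexes, which goes against the sex matching stated in the study's methods. Without mouse 1, none of the 10 chemokines was called in WT CAC against naive WT. None was called there without mouse 2 either, a male by these genes. WT CAC mouse 4 had 0.571 CPM of the neutrophil gene S100a8, while WT CAC mice 5 and 6 had 18.3 and 13.6 CPM.

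Of the 10 chemokines, 6 passed the filter on low counts. In WT CAC against naive WT, Ccl9 rose, and Ccl6 and Ccl28 fell. Ccl8 was higher there too, but it passed the filter through the WT CAC mice, in which it was high, so that difference is read from the fit without the filter. In Cldn2TG CAC against WT CAC, Ccl8 and Ccl9 were lower and Ccl28 was higher, which is the opposite direction for each of the 3. Between Cldn2TG CAC and naive WT mice, 0 of the 6 were called by edgeR or by DESeq2, and 0 had an unadjusted p under 0.05 in edgeR. As background, 8.04% of all genes tested were called higher and 6.92% lower in WT CAC against naive WT. The shares were 2.19% higher and 7.35% lower in Cldn2TG CAC against WT CAC, and 3.92% higher and 6.07% lower in Cldn2TG CAC against naive WT. That last split, 589 genes higher and 912 lower, became 276 and 1310 when libraries were scaled by size only, which moved the median log2 fold change of all genes from 0.0023 to -0.11. The groups did not overlap for 7 of the 10 chemokines in WT CAC against naive WT and for the same number in Cldn2TG CAC against WT CAC, where 38.0% and 28.0% of all genes tested did not overlap. Among the 6 tested chemokines the number was 5 in each. Cldn2TG CAC and naive WT mice overlapped for all 10, where 31.4% of genes tested did not. The comparisons with WT CAC share the WT CAC mice, so their opposite directions are not independent of each other. The other 4, Ccl2, Ccl3, Ccl4 and Ccl7, were too low for the filter in every comparison and are described by their counts.

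**Figure D1:**
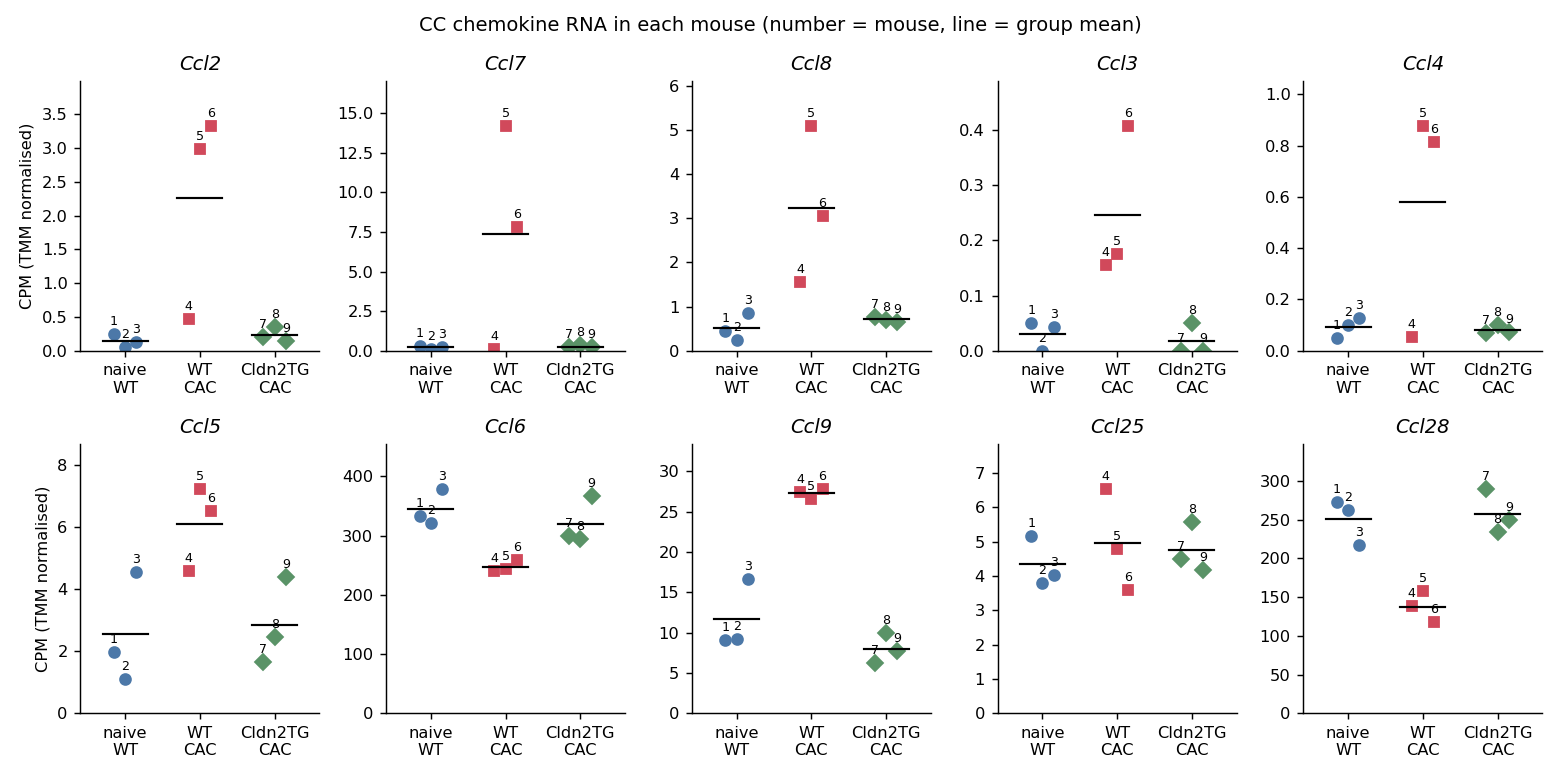
TMM-normalised CPM (vertical axis, linear from 0, a separate scale in each panel) of the 10 CC chemokines in naive WT, WT CAC and Cldn2TG CAC mice. Each point is 1 mouse with its number and the line is the group mean; Ccl2, Ccl4 and Ccl7 were high in WT CAC mice 5 and 6 but not in mouse 4, and Ccl9 was between 26.6 and 27.8 CPM in all 3 WT CAC mice.

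The stretch of 250 bases before the RefSeq start of each of the 4 called chemokines is shown because these genes moved with the groups in opposite directions. The windows are on GRCm38.p6 and are written 5′ to 3′ on the strand of the gene: chr11:82114935-82115184 (+) for Ccl8, chr11:83578637-83578886 (-) for Ccl9, chr11:83593088-83593337 (-) for Ccl6 and chr13:119623569-119623818 (+) for Ccl28. Capitals mark matches, on either strand, to 6 motifs: the NF-kB consensus, AP-1 (TGANTCA), the core of the interferon-stimulated response element (GAAANNGAA), an HNF4-like site (AGGNCAAAG), the TATA box (TATAAA) and CDX (TTTATNG).
Ccl8: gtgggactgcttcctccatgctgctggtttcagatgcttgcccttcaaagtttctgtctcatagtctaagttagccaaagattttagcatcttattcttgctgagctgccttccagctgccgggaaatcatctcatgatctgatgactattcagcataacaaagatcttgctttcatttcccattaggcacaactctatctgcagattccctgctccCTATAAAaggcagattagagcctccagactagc
Ccl9: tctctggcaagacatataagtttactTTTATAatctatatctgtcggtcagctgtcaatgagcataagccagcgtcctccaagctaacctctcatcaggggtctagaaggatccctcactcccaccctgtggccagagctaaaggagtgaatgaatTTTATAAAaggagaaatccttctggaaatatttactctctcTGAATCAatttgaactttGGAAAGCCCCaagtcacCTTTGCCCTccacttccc
Ccl6: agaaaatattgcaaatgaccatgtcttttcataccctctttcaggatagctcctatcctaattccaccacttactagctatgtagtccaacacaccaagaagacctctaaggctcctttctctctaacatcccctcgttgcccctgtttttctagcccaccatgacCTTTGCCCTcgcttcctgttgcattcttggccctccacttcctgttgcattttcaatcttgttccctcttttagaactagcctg
Ccl28: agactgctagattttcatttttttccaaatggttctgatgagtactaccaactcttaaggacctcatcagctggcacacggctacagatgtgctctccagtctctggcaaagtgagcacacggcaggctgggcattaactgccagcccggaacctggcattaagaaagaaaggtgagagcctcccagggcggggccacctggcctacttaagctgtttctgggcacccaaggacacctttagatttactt

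The Ccl9 window held an NF-kB match 35 to 26 bases before the start, an AP-1 match 53 to 47 bases before it and an HNF4-like match 18 to 10 bases before it, besides 3 TATA matches, of which 2 overlapped. The Ccl8 window held a TATA match 32 to 27 bases before the start, which lay inside a CDX match. The Ccl6 window held 1 HNF4-like match, 84 to 76 bases before the start, and the Ccl28 window held no match to any of the 6. Of 32851 RefSeq windows of this length, 7.25% held the NF-kB consensus, 6.75% AP-1, 7.13% the interferon element, 1.8% the HNF4-like site, 12.4% the TATA box and 9.81% CDX. These are matches of letters, not sites shown to be bound. Ccl3 and Ccl25 also had windows, which are not shown. Ccl2, Ccl4, Ccl5 and Ccl7 were not among the windows.

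The CCR2 ligands were among the lowest chemokines in naive colon. Ccl2 (chr11:82035571-82037453, + strand of GRCm38, as are all gene positions given here) is the principal monocyte attractant. It had 5, 1 and 3 reads in naive mice 1 to 3, 9, 68 and 49 reads in WT CAC mice 4 to 6, and 3, 7 and 2 reads in Cldn2TG CAC mice 7 to 9. In CPM these were 0.249, 0.0501 and 0.129, then 0.467, 2.98 and 3.33, then 0.207, 0.352 and 0.146. All 3 WT CAC mice lay above all 6 others, mouse 4 by a small margin. Without the filter, edgeR gave Ccl2 a log2 fold change of 3.90 ± 0.80 (SE) in WT CAC against naive WT (adjusted p = 0.0150) and -3.14 ± 0.70 in Cldn2TG CAC against WT CAC (adjusted p = 0.0156).

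Ccl7 (chr11:82045712-82047525, + strand), the neighbour of Ccl2 and another CCR2 ligand, split the WT CAC group. It had 6, 2 and 5 reads in naive mice, 2, 324 and 115 in WT CAC mice 4, 5 and 6, and 3, 7 and 3 in Cldn2TG CAC mice. The CPM of the WT CAC mice were 0.104, 14.2 and 7.81, against 0.10 to 0.298 in naive and 0.207 to 0.352 in Cldn2TG CAC mice. Mouse 4 thus lay within the range of naive mice, and mice 5 and 6 lay above every other mouse. Without the filter, the log2 fold change was 5.11 ± 1.80 in WT CAC against naive WT (adjusted p = 0.203) and -4.73 ± 1.77 in Cldn2TG CAC against WT CAC (adjusted p = 0.305). When mouse 4 was left out, Ccl2, Ccl4 and Ccl7 passed the filter through the 2 remaining WT CAC mice, in which they were high, so no call is read from those fits. They also passed the filter when mouse 1, 2 or 3 was left out against naive WT, where none was called (adjusted p = 0.0653 to 0.238), and when mouse 7, 8 or 9 was left out in Cldn2TG CAC against WT CAC, where none was called either (adjusted p = 0.114 to 0.293).

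Ccl8 (chr11:82115185-82116799, + strand), which in mice acts through CCR8, was highest in the 3 WT CAC mice. It had 0.448, 0.250 and 0.860 CPM in naive mice, 1.56, 5.08 and 3.06 CPM in WT CAC mice and 0.759, 0.704 and 0.659 CPM in Cldn2TG CAC mice. Every WT CAC mouse lay above every other mouse, with mouse 4 lowest of the 3. In Cldn2TG CAC against WT CAC, where all 6 mice were above the filter level, the log2 fold change was -2.19 ± 0.47 (adjusted p = 0.0242). Against naive WT only 1 of the 3 naive mice was above it, so the filtered fit (2.62 ± 0.57, adjusted p = 0.0259) is no support by itself. Without the filter, where each gene with a read entered, the log2 fold change in WT CAC against naive WT was 2.59 ± 0.52 (adjusted p = 0.00804). With the filter and 1 mouse left out, Ccl8 was called only without mouse 4 in each comparison (adjusted p = 0.00431 and 0.00116), and was 0.0556 to 0.0954 against naive WT and 0.0532 to 0.108 in Cldn2TG CAC against WT CAC otherwise. Its receptor gene Ccr8 had at most 0.263 CPM in any mouse and was not tested.

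The inflammatory chemokines Ccl3 and Ccl4 were close to the limit of detection, for which 3 reads (0.129 to 0.220 CPM, depending on the mouse) are used here. Ccl3 (chr11:83647844-83649355, - strand), made by activated macrophages, had 1, 0 and 1 reads in naive mice, 3, 4 and 6 in WT CAC mice and 0, 1 and 0 in Cldn2TG CAC mice. Ccl4 (chr11:83662584-83664683, + strand) had 1, 2 and 3 reads in naive mice, 1, 20 and 12 in WT CAC mice and 1, 2 and 1 in Cldn2TG CAC mice. Both were highest in WT CAC mice 5 and 6, and mouse 4 had no more Ccl4 reads than naive mice. Without the filter neither was called, with adjusted p of 0.105 and 0.0780 in WT CAC against naive WT and 0.132 and 0.0772 in Cldn2TG CAC against WT CAC. At this depth no difference between naive WT and Cldn2TG CAC mice was detectable for either.

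Ccl5 (chr11:83525778-83530518, - strand), the chemokine of activated T cells and NK cells, was better covered. It had 1.99, 1.10 and 4.56 CPM in naive mice, 4.57, 7.23 and 6.52 CPM in WT CAC mice and 1.66, 2.46 and 4.39 CPM in Cldn2TG CAC mice. The WT CAC mice lay above all others, but naive mouse 3 and WT CAC mouse 4 lay next to each other. edgeR did not call it: the log2 fold change was 1.26 ± 0.48 in WT CAC against naive WT (adjusted p = 0.116) and -1.11 ± 0.38 in Cldn2TG CAC against WT CAC (adjusted p = 0.104). DESeq2 called it in both (adjusted p = 0.0498 and 0.0433), and edgeR without mouse 4 called it in the second (adjusted p = 0.0362).

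The rodent CCR1 ligands Ccl6 and Ccl9 are neighbours on chromosome 11, and went in opposite directions in WT CAC mice. Ccl9 (chr11:83572919-83578636, - strand) had 9.10, 9.21 and 16.6 CPM in naive mice, 27.4, 26.6 and 27.8 CPM in WT CAC mice and 6.28, 10.0 and 7.68 CPM in Cldn2TG CAC mice. The WT CAC mice, mouse 4 included, lay close to each other and above all others. Ccl9 was 2.34-fold as high in WT CAC as in naive WT mice by group means, with a log2 fold change of 1.23 ± 0.24 (adjusted p = 0.0191). In Cldn2TG CAC it was at 29.3% of the WT CAC mean, with a log2 fold change of -1.77 ± 0.19 (adjusted p = 0.00426), the lowest adjusted p of any of the 6 tested chemokines. The call in Cldn2TG CAC against WT CAC held in all 6 fits that left out 1 mouse (adjusted p from 0.000434 to 0.0430). Against naive WT it was lost without mouse 1 (adjusted p = 0.0629) and without mouse 2 (adjusted p = 0.0801). Cldn2TG CAC mice did not differ from naive mice by edgeR's test (log2 fold change -0.53 ± 0.27, adjusted p = 0.240), where 2 of the 3 lay below all naive mice, and the fit without the filter called it lower (adjusted p = 0.0461).

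Ccl6 (chr11:83587882-83593087, - strand) was the most abundant of the 10. It had 333, 321 and 379 CPM in naive mice, 240, 244 and 258 CPM in WT CAC mice and 300, 294 and 367 CPM in Cldn2TG CAC mice. All WT CAC mice lay below all others. The mean in WT CAC was 71.9% of that in naive mice (log2 fold change -0.47 ± 0.11, adjusted p = 0.0320). Between Cldn2TG CAC and WT CAC the log2 fold change was 0.37 ± 0.13, which did not pass the test (adjusted p = 0.121). With 1 mouse left out, the fall in WT CAC was called only without mouse 4 (adjusted p = 0.0311), and the adjusted p was 0.0618 to 0.114 without another mouse.

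**Figure D2:**
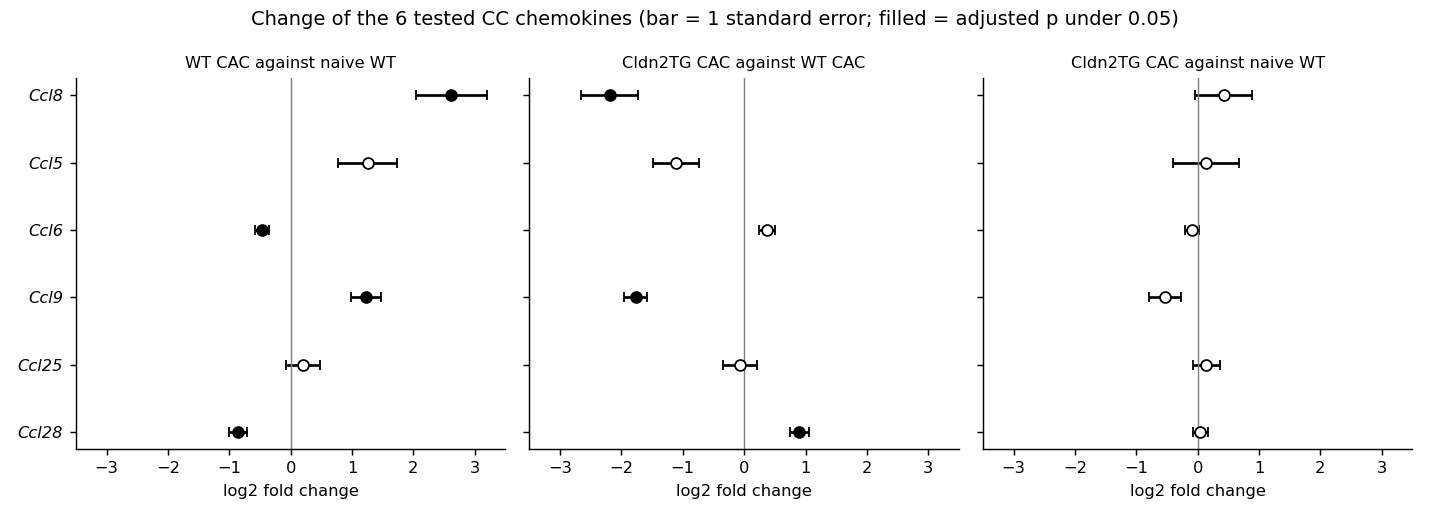
Log2 fold change (horizontal axis) with 1 standard error of the 6 tested chemokines in 3 comparisons of 3 mice against 3, from edgeR. Filled points have an adjusted p under 0.05: Ccl8 (which passed the filter through WT CAC mice) and Ccl9 were positive in WT CAC against naive WT and negative in Cldn2TG CAC against WT CAC, Ccl28 the reverse, and no point is filled in Cldn2TG CAC against naive WT.

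Of the mucosal epithelial chemokines, Ccl28 moved and Ccl25 did not pass the test. Ccl28 (chr13:119623819-119654354, + strand), which draws IgA-secreting cells through CCR10, had 273, 263 and 217 CPM in naive mice, 138, 158 and 117 CPM in WT CAC mice and 290, 234 and 249 CPM in Cldn2TG CAC mice. All WT CAC mice were below all others. The WT CAC mean was 55.0% of that of naive mice (log2 fold change -0.86 ± 0.15, adjusted p = 0.0145), and the Cldn2TG CAC mean was 1.87-fold that of WT CAC mice (log2 fold change 0.90 ± 0.15, adjusted p = 0.0118). Cldn2TG CAC and naive mice overlapped, with a log2 fold change of 0.05 ± 0.12 (adjusted p = 0.841). The first call was lost without mouse 1 (adjusted p = 0.0549) or mouse 2 (0.0681), and the second without mouse 8 (adjusted p = 0.0565) or mouse 9 (0.0632). The 11 genes of the colon epithelium list, summed, lay between 14646 and 21303 CPM in all 9 mice with overlapping groups. Krt8 was the largest part of each sum (4947 to 7472 CPM). None of the 11 was called in either comparison, although 2 were lower in WT CAC than in naive WT and 3 were higher in Cldn2TG CAC than in WT CAC when mouse 4 was left out. The part of the epithelium in the Ccl28 difference was not tested.

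Ccl25 (chr8:4325210-4360020, + strand), which is known from the small intestine, had 5.17, 3.81 and 4.04 CPM in naive mice, 6.54, 4.78 and 3.60 CPM in WT CAC mice and 4.49, 5.58 and 4.17 CPM in Cldn2TG CAC mice. The 3 groups overlapped throughout. Its log2 fold changes were 0.20 ± 0.28 (adjusted p = 0.644), -0.07 ± 0.28 (adjusted p = 0.931) and 0.14 ± 0.22 (adjusted p = 0.722) in the order of comparisons above. One exon of the Ccl25 gene model overlaps Elavl1, on the opposite strand and at 66.5 to 90.1 CPM, and the strand setting of the counting is not given in the sources used here, so reads of the 2 genes may be mixed there. The 9 small intestinal enterocyte genes on the marker list summed to 45.8 to 143 CPM in the 9 mice. Most of that came from Fabp2 (18.8 to 114 CPM), Rbp2 (16.1 to 44.5 CPM) and Fabp6 (4.01 to 19.4 CPM), while Lct, Sis, Apoa1 and Apoa4 had at most 0.276 CPM in any mouse.

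**Figure D3:**
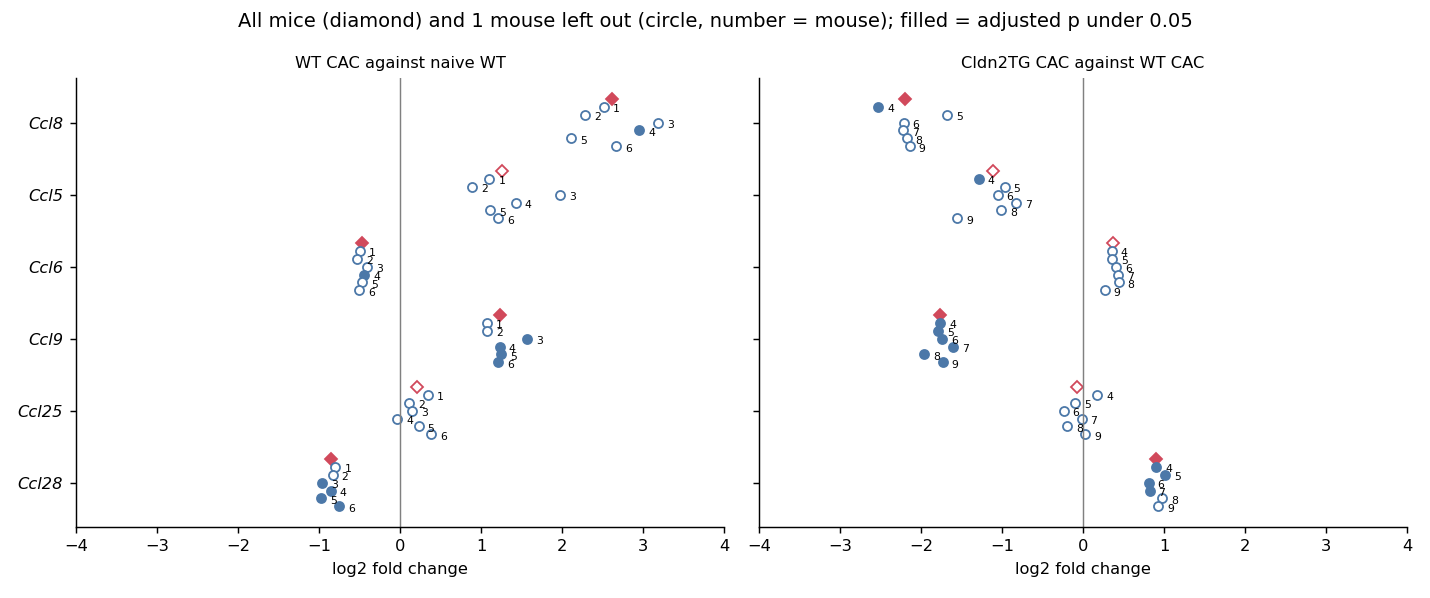
Log2 fold change (horizontal axis) of the 6 tested chemokines with all mice (diamonds) and with 1 mouse left out (circles with the number of that mouse), filled where the adjusted p was under 0.05. Ccl9 is filled throughout in Cldn2TG CAC against WT CAC, and Ccl8 is filled among the circles only without mouse 4 in both panels.

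Per gene length, the levels of the chemokines fell into a steep order. TPM scales reads to the exon length of the whole gene model, not of 1 transcript, and then to the library. In TPM, Ccl6 stood at 497 ± 62.5 in naive mice and made up 71.7% of the summed level of the 10. Ccl28 at 173 ± 15.6 made up 25.0%. Ccl9 followed at 9.98 ± 4.08 and Ccl5 at 6.98 ± 5.15 TPM, which overlapped, as did Ccl5 with Ccl8 at 2.66 ± 1.69 and Ccl8 with Ccl25 at 1.51 ± 0.244 TPM. The Ccl25 gene model is 7445 bases long, against 960 for Ccl5 and 511 for Ccl8. In CPM the naive mean of Ccl25 (4.34) was above those of Ccl5 (2.55) and Ccl8 (0.519), so its place in this order rests on the length used. Ccl7, Ccl4, Ccl2 and Ccl3 were each under 1 TPM in all naive mice, in that order, and each overlapped the next. In WT CAC mice Ccl6 at 336 ± 22.7 TPM and Ccl28 at 90.2 ± 16.4 TPM were again the highest, with no overlap. Ccl7 at 23.2 ± 22.6, Ccl9 at 21.8 ± 0.880, Ccl8 at 15.7 ± 9.28 and Ccl5 at 15.6 ± 4.22 TPM came next and overlapped one another in that order. Summed, the 10 stood at 693 ± 60.2 TPM in naive WT, 513 ± 71.8 in WT CAC and 571 ± 35.4 in Cldn2TG CAC mice (SD, n = 3 each). The 8 other than Ccl6 and Ccl28 summed to 22.6 ± 11.1, 85.9 ± 41.2 and 18.4 ± 2.89 TPM in the same order. Of that WT CAC sum, Ccl7 gave 45.5 and 23.7 TPM in mice 5 and 6 and 0.300 TPM in mouse 4. In Cldn2TG CAC mice Ccl6 (398 ± 32.3 TPM) and Ccl28 (155 ± 23.8) were again the highest. Ccl5 (6.51 ± 2.88) and Ccl9 (5.86 ± 1.36) came next there and overlapped.

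**Figure D4:**
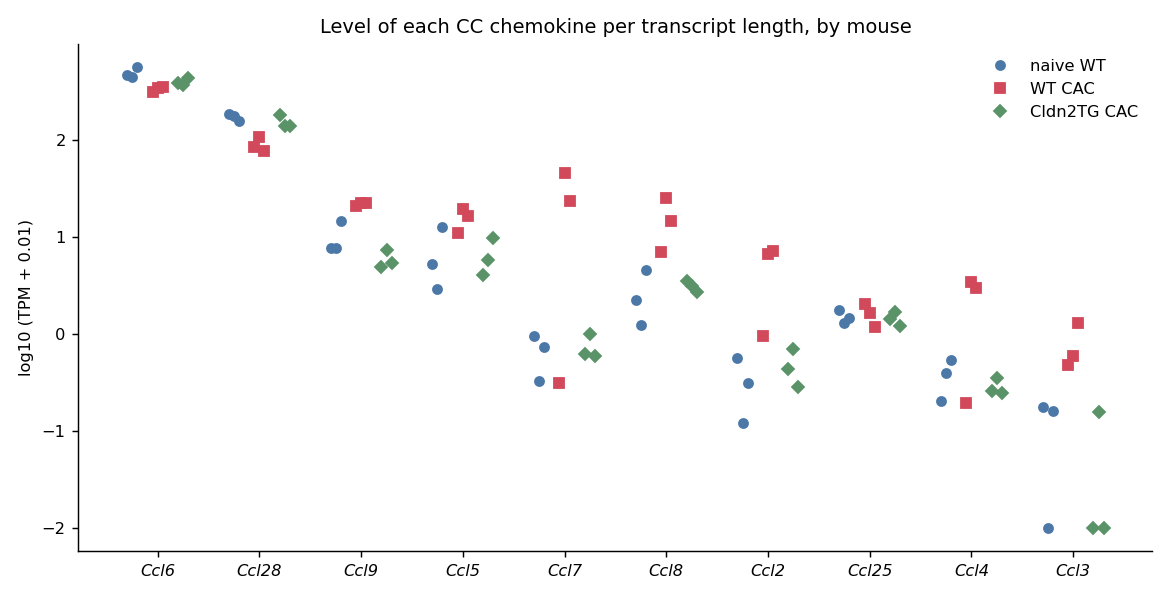
Level of each chemokine per length of its gene model, as log10 of TPM plus 0.01 (vertical axis), with 1 point per mouse and the chemokines ordered by their mean over the 9 mice. Ccl6 and Ccl28 lie above all others in every group, and the lowest points of Ccl3 are mice with no read.

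The receptors of these ligands were read from a list of 13 CC chemokine receptor genes, of which 10 were tested in WT CAC against naive WT. Of these 10, 6 were above the filter level in every mouse, and 2 of the 6 were called, Ccr1 higher and Ackr4 lower. Over all genes tested, 8.04% were called higher and 6.92% lower. Ccr1, the receptor of Ccl3, Ccl5, Ccl6 and Ccl9, rose from 2.54, 1.10 and 1.59 CPM in naive mice to 3.43, 8.02 and 5.50 CPM in WT CAC mice (log2 fold change 1.71 ± 0.42, adjusted p = 0.0337). Ccr7, which takes T cells and dendritic cells to lymph nodes, was called higher too, but only 1 of the 3 naive mice was above the filter level. It thus passed the filter through the group in which it was high, and its fit is not given. Ackr4, a scavenger of Ccl25 and other homeostatic chemokines, fell (log2 fold change -1.29 ± 0.29, adjusted p = 0.0263). Ccr2 missed the threshold (log2 fold change 1.78 ± 0.51, adjusted p = 0.0528). No receptor was called in this comparison without mouse 2, 3, 5 or 6, and 1 was called higher and none lower without mouse 1.

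Between Cldn2TG CAC and WT CAC, 9 receptors were tested, and 3 of them were above the filter level in every mouse. Of these 3, only Ccr1 was called, and it was lower (log2 fold change -2.34 ± 0.42, adjusted p = 0.0143). Over all genes tested, 7.35% were called lower and 2.19% higher. Ccr2 and Ccr7 also came out lower, but not every Cldn2TG CAC mouse was above the filter level for them. For Ccr2 only 2 of the 3 were, so its filtered fit (-2.43 ± 0.52, adjusted p = 0.0252) is no support by itself. No receptor was called higher. Ccr2 had 0.759, 0.553 and 0.951 CPM in Cldn2TG CAC mice and 1.61, 6.18 and 4.21 CPM in WT CAC mice, so mouse 4 was again the lowest of its group. Ccr7 had 0.345, 0.352 and 0.586 CPM in Cldn2TG CAC mice, all under the filter level, and 3.27, 2.15 and 2.31 CPM in WT CAC mice. It again passed the filter through the group in which it was high, and its fit is not given. Ccr9 and Ccr10, the receptors of Ccl25 and Ccl28, were not called in any comparison, and Ccr10 had a log2 fold change of -1.13 ± 0.36 (adjusted p = 0.0888) while Ccl28 was higher. Against naive WT, Ackr4 was lower in Cldn2TG CAC mice (log2 fold change -1.41 ± 0.26, adjusted p = 0.00958). Ackr1 was tested there through the naive mice, in which it was high, with 1 of the 3 Cldn2TG CAC mice above the filter level, so its fit is not given either. The number of receptors called lower in Cldn2TG CAC against WT CAC, whether or not above the filter level in every mouse, was 6 without mouse 4 and 0 without mouse 8. It was 1 without mouse 9 and 2 without mouse 5, 6 or 7.

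Of 13 other CC chemokines in the table, Ccl20, a CCR6 ligand of epithelium, was lower in Cldn2TG CAC against WT CAC (log2 fold change -0.86 ± 0.18, adjusted p = 0.0219). This call was lost without mouse 6, 7, 8 or 9 (adjusted p = 0.0526 to 0.103), with all 9 mice in the fit (0.0856) and with lane 2 only (0.111). Ccl22, a CCR4 ligand made by dendritic cells and macrophages, had 0.448, 0.250 and 0.215 CPM in naive mice and 0.483, 0.402 and 0.439 CPM in Cldn2TG CAC mice, against 2.03, 4.43 and 2.92 CPM in WT CAC mice. Every WT CAC mouse lay above every other mouse, but Ccl22 was tested only through that group, the others being under the filter level, and its fit is not given. Ccl11 and Ccl27a were tested and not called in any comparison, and Ccl21a, Ccl21b, Ccl26 and Ccl27b had no read in any mouse.

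**Figure D5:**
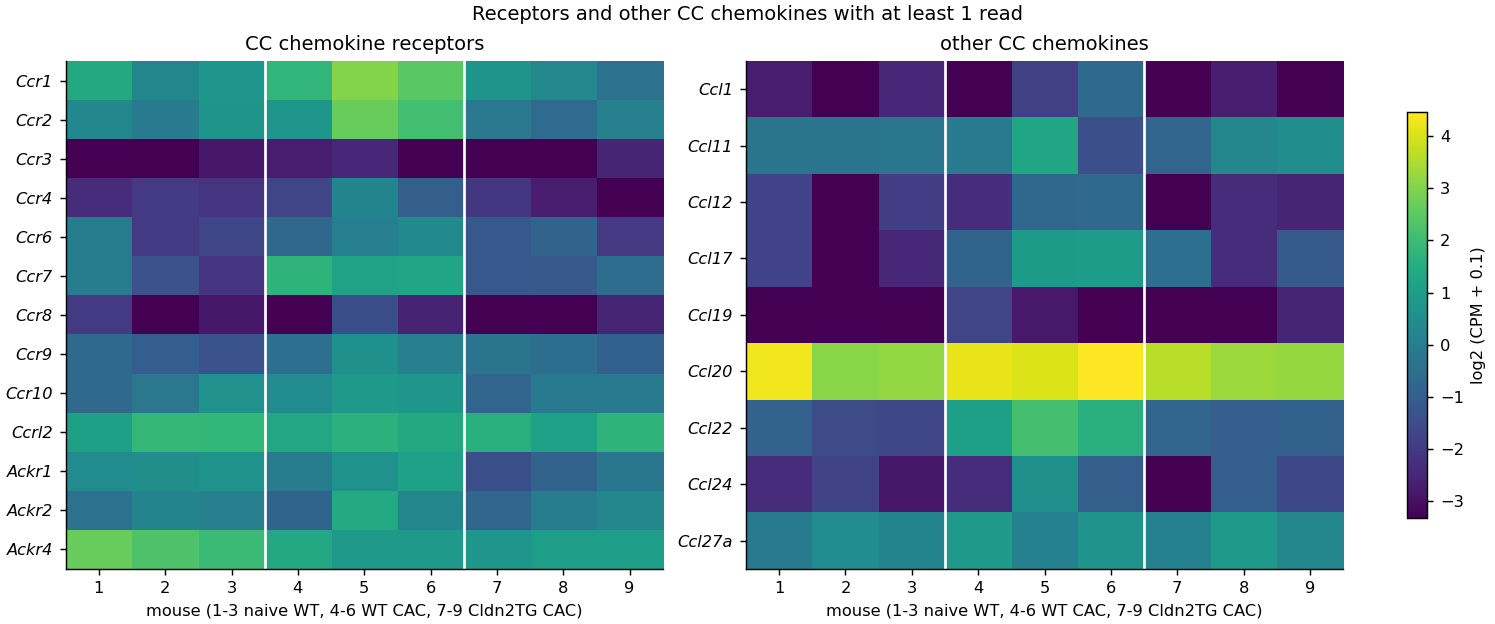
Log2 of CPM plus 0.1 (colour) of the CC chemokine receptors and of the other CC chemokines with at least 1 read (rows), in mice 1 to 9 (columns, white lines between the groups). Ccr1 and Ccr2 are brightest in WT CAC mice 5 and 6, and Ccl22 is brighter in all 3 WT CAC mice than in any other mouse.

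Of 14 monocyte and macrophage genes, 7 were called higher in WT CAC against naive WT, and 9 of 13 tested were lower in Cldn2TG CAC against WT CAC. All 7 of the former and 7 of the latter were above the filter level in every mouse compared. Their summed level was 188 to 220 CPM in naive mice, 241, 467 and 498 CPM in WT CAC mice 4, 5 and 6, and 123 to 173 CPM in Cldn2TG CAC mice. The 12 T cell genes summed to 7.56 to 15.1 CPM in naive, 31.2 to 49.4 in WT CAC and 9.0 to 13.8 in Cldn2TG CAC mice. Only 5 of them were above the filter level in every naive and WT CAC mouse, and 4 in every Cldn2TG CAC and WT CAC mouse, so no count of calls over the list is given. Cd3g, a chain of the T cell receptor complex, which was above it in all 9 mice, was higher in WT CAC against naive WT (log2 fold change 2.37 ± 0.45, adjusted p = 0.0181) and lower in Cldn2TG CAC against WT CAC (-1.94 ± 0.38, adjusted p = 0.0188). It lost the first call without mouse 1 or 2 and the second without mouse 5, 7, 8 or 9. Lck and Trbc2 were also above the filter level in all 9 mice. Lck changed less, by 0.88 ± 0.25 (adjusted p = 0.0478) and -0.91 ± 0.22 (adjusted p = 0.0356) in these 2 comparisons. Trbc2 changed by 2.25 ± 0.40 (adjusted p = 0.0157) and -2.39 ± 0.32 (adjusted p = 0.00777). The 7 cytotoxic lymphocyte genes, none of which was above the filter level in every naive and WT CAC mouse, summed to 1.35 to 5.80 CPM in naive mice, 5.66, 23.8 and 25.9 CPM in WT CAC mice 4, 5 and 6, and 2.55 to 4.90 CPM in Cldn2TG CAC mice, so the sums of naive and WT CAC mice overlapped. None of these 3 lists had a gene at 0 in all mice. Their part in the chemokine differences was not tested, and in bulk tissue RNA fewer cells of a type and less RNA per cell cannot be told apart. Without mouse 8, none of the genes of the 3 lists was called in Cldn2TG CAC against WT CAC, and without mouse 9 no monocyte and macrophage gene was. In WT CAC against naive WT, none was called without mouse 2, and the monocyte and macrophage genes called were 1 without mouse 1 and 0 without mouse 3.

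Pearson's r of log2 CPM over the 9 mice was computed between each chemokine that averaged 1 CPM or more and 13891 genes, as a description, since all values of a pair come from the same libraries and the groups differ. The 2 most alike genes were Eif4e3 (r = 0.987) and Itgae (0.985) for Ccl8, and Il33 and Spsb1 (0.968 each) for Ccl7. They were Isx (0.976) and Nkg7 (0.944) for Ccl5, Csf2ra and Zfp1 (0.976 each) for Ccl9, and Stk39 (0.972) and Copb1 (0.965) for Ccl6. For Ccl28 they were Xpr1 (0.986) and Gsdmcl2 (0.981), and for Ccl25 Mtg2 (0.893) and Rbm5 (0.892). Itgae encodes the alpha chain of the integrin that holds T cells in epithelium, Nkg7 a granule protein of cytotoxic lymphocytes and Csf2ra the receptor chain for GM-CSF. The other like genes are not described here, among them Eif4e3 and Isx, which ranked first for Ccl8 and Ccl5.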

How the data were processed

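RNA of colon tissue was sequenced on a NovaSeq6000, with 2 lanes for each of 9 libraries. The authors mapped the reads (TopHat2 in the study's methods, HISAT2 in the submitters' processing notes, on GRCm38; versions and strand setting are not given in the sources used here) and counted them per gene with featureCounts. The deposited values are whole-number counts, without normalization. The 2 lanes of each library agree within sampling noise (chi-square per degree of freedom 0.995 to 1.06, where mice of a group gave 16.8 to 66.3) and were summed. The labels number the libraries R1 to R9 and each is taken as 1 mouse, so p-values measure the spread between these samples. Symbols came from GENCODE M21 (47224 of 47729 genes), and promoter windows from RefSeq.

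Each comparison was fitted on its 6 mice with edgeR 4.0.16 in R 4.3.3: TMM factors, genes kept by filterByExpr with its minimum count of 10 and total of 15, and the two-sided quasi-likelihood test after a robust fit, with p adjusted by Benjamini-Hochberg over all genes tested. Standard errors were derived from the test statistic. The script was checked on simulated counts. TPM used the gene lengths in the table. A two-sided exact permutation test of 3 mice against 3 cannot go below 0.1. Alternatives were DESeq2 1.42.0, other normalizations and filters, all 9 mice in the fit, single lanes, stricter thresholds and leaving out each mouse.

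All 10 chemokines were named. Every gene of the receptor and other CC chemokine lists that passed the filter could be named, cell type lists were given as counts and sums, and the 2 genes most like each chemokine were named. The members and lists were chosen with earlier results of these data known. The naive, WT CAC and Cldn2TG CAC mice carry different mouse numbers in the labels, and nothing pairs them. A receptor gene is not reported here, and counts over the receptor list leave it out.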

Additional observations from a re-analysis of the deposited data

How the results depend on the processing

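The called directions of Ccl6, Ccl8, Ccl9 and Ccl28 were the same under every alternative that gave a value, scalings included. The number of chemokines called in WT CAC against naive WT (4, Ccl8 included) became 2 when a log2 fold change beyond 1 in size was also asked for, and 0 at an adjusted p under 0.01, and was 0 (without mouse 1 or 2) to 7 (without mouse 4) with 1 mouse left out. For Cldn2TG CAC against WT CAC (3) it became 1 at an adjusted p under 0.01, and was 1 (without mouse 8 or 9) to 7 (without mouse 4) with 1 mouse left out. For Cldn2TG CAC against naive WT (0) it became 1 without the filter, where Ccl9 was called. The counts of 7 include Ccl2, Ccl4 and Ccl7, which then passed the filter through the WT CAC mice in which they were high. Each of these settings tests other genes, fewer mice or a stricter threshold.

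Over all genes, the number called in WT CAC against naive WT was 2310, and 135 (without mouse 2) to 4080 (without mouse 4) with 1 mouse left out. For Cldn2TG CAC against WT CAC it was 1421, and 58 (without mouse 8) to 2894 (without mouse 4), with 2136 for all 9 mice in 1 fit. Between Cldn2TG CAC and naive WT it was 1501, and 525 (without mouse 3) to 1383 (without mouse 7), with 445 for all 9 mice in 1 fit and 2567 without the filter.

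Values that changed sign were not called in any setting, and among them Ccl5 moved the most. In Cldn2TG CAC against WT CAC, Ccl25 was 0.033 with lane 1 only and -0.24 to 0.18 with 1 mouse left out. In WT CAC against naive WT it was -0.0338 to 0.385 with 1 mouse left out. Between Cldn2TG CAC and naive WT, lane 2 only gave -0.11 for Ccl5 and -0.0458 for Ccl25, and library size only gave -0.0651 for Ccl28. With 1 mouse left out, the ranges there were -0.30 to 0.87 for Ccl5, -0.0012 to 0.29 for Ccl25 and -0.0529 to 0.116 for Ccl28. The cause of these changes was not tested. No paired analysis was possible because the groups share no mouse number. At this depth Ccl2, Ccl3, Ccl4 and Ccl7 had few reads outside WT CAC mice 5 and 6.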

Other observations

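Other cell type markers gave the following counts and levels. Of 6 tested B cell and plasma cell genes, all above the filter level in every naive and WT CAC mouse, 2 were called higher in WT CAC against naive WT. In Cldn2TG CAC against WT CAC, 4 were above it in every mouse, and 2 of these were called lower. Mzb1 was called lower too, but only 2 of the 3 Cldn2TG CAC mice were above the filter level. The list summed to 41.3 to 94.7 CPM in naive, 242 to 457 in WT CAC and 39.3 to 108 in Cldn2TG CAC mice. The 6 neutrophil genes summed to 136 to 207 CPM in naive, 307 to 375 in WT CAC and 303 to 348 in Cldn2TG CAC mice, most of it Ly6g. S100a8, S100a9 and Csf3r had at most 0.348 CPM in naive and Cldn2TG CAC mice, so each could be tested only through the WT CAC mice in which it was high, and no count of calls is given for this list. Retnlg had 0, 1.36 and 0.747 CPM in WT CAC mice 4, 5 and 6. Ly6g, above the filter level in every mouse, stood at 135 to 207 CPM in naive, 305 to 324 in WT CAC and 303 to 348 in Cldn2TG CAC mice. It was higher than in naive WT in WT CAC (log2 fold change 0.82 ± 0.17, adjusted p = 0.0206) and in Cldn2TG CAC mice (0.87 ± 0.15, adjusted p = 0.00881). Between the 2 treated groups it was not called (adjusted p = 0.902). Of the eosinophil genes, Siglecf was tested and not called in any comparison, Il5ra had at most 0.276 CPM in naive and Cldn2TG CAC mice and 1.09, 3.55 and 1.83 CPM in WT CAC mice, and Epx had at most 0.0679 CPM.

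Among stromal genes, 2 of 6 fibroblast and 3 of 5 endothelial genes were lower in Cldn2TG CAC against WT CAC, and none of either list was called in WT CAC against naive WT. Against naive WT, 4 of 5 endothelial, 2 of 6 smooth muscle and 1 of 6 fibroblast genes were lower in Cldn2TG CAC mice. Smooth muscle genes were not called in the other comparisons, but summed to 2940 CPM in WT CAC mouse 4 and to 1027 and 1278 CPM in mice 5 and 6. Of 4 tested small intestinal enterocyte genes, 2 were higher in Cldn2TG CAC against WT CAC, and 1 of 11 colon epithelium genes was higher in Cldn2TG CAC against naive WT. Without mouse 8, none of the genes of these lists was called in Cldn2TG CAC against WT CAC.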
